A study of Homo sapiens with 54 samples.

Results

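The proteasome subunit genes were followed through a gene expression series of 6 human cancer cell lines treated with kinase inhibitors. Members were every gene whose symbol begins PSMA, PSMB, PSMC, PSMD, PSME, PSMF or PSMG followed by a number, with 1 exception that is not reported here. This gave 47 of the 33119 genes in the count tables. By role they were 8 alpha-ring genes, 3 constitutive catalytic genes (PSMB5, PSMB6, PSMB7), 3 immunoproteasome catalytic genes (PSMB8, PSMB9, PSMB10), 1 thymus catalytic gene (PSMB11), 4 structural beta-ring genes, 6 ATPases and 10 non-ATPases of the regulatory particle, 3 chaperones of the regulatory particle, 5 activators or inhibitors (PSME1 to PSME4 and PSMF1) and 4 chaperones of the core particle (PSMG1 to PSMG4). In each of the 23 comparisons 45 members passed the filter on low counts. The other 2, PSMA8 (an alpha subunit of the testis) and PSMB11, held 6 and 4 counts over all 54 libraries and were not tested.

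The 54 libraries formed 18 groups of 3, deposited as 2 sets. Set 1 held the colorectal cancer lines SW48 and SW620, each with trametinib and as control (12 libraries). Set 2 held SW48 and SW620 with trametinib, with palbociclib and as control, the stomach lines NCI-N87 and MKN-45 with afatinib and as control, and the breast lines BT-474 and BT-20 with afatinib and as control (42 libraries). Trametinib inhibits the MEK kinases, palbociclib inhibits CDK4 and CDK6, and afatinib binds the ERBB receptor kinases irreversibly. The sources used here give neither doses nor times, nor do they say whether a group's libraries were separate cultures. The p-values therefore reflect variation among these libraries, some of which may be technical. Each group is a single established line grown in DMEM with serum, with no non-cancer counterpart and no added cytokine named. Libraries were made from 500 ng of RNA with a kit that reads 1 tag near the 3′ end of each transcript, so levels compare a gene between libraries and do not rank one gene against another. In such bulk RNA, fewer cells of one kind and less RNA per cell cannot be told apart.

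The proteasome is the protease that degrades ubiquitin-tagged proteins. Its barrel-shaped core has outer alpha rings and inner beta rings, and its proteolytic sites lie on the beta subunits PSMB5, PSMB6 and PSMB7. Interferon gamma, and in many cells other inflammatory signals, induces PSMB8, PSMB9 and PSMB10, which are built into new cores in place of PSMB5, PSMB6 and PSMB7 and shift cleavage towards peptides that MHC class I molecules can carry. PSME1 and PSME2 encode the subunits of the PA28 activator, which caps the core and is induced by interferon too, while the regulatory particle (PSMC ATPases and PSMD non-ATPases) binds and unfolds ubiquitin-tagged substrates. When proteasomes are blocked, the factor NRF1 (gene NFE2L1) raises the constitutive subunit genes together.

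The start-site windows of the interferon-inducible members are shown because the results below turn on these genes, with PSMB5 as the constitutive partner of PSMB8. Each is a RefSeq window on GRCh38.p14 of 300 bases, from 250 before to 50 after the transcription start, written 5′ to 3′ on the gene's strand. Capitals mark the interferon-stimulated response element core GAAANNGAAA or the gamma-activated site TTCNNNGAA, both searched on both strands. PSMB8 (chromosome 6, 32840717 to 32844679, minus strand), PSMB9 (chromosome 6, 32854192 to 32859851, plus strand), PSMB10 (chromosome 16, 67934506 to 67936850, minus strand), PSME1 (chromosome 14, 24136194 to 24138962, plus strand), PSME2 (chromosome 14, 24143365 to 24146610, minus strand) and PSMB5 (chromosome 14, 23025851 to 23035220, minus strand) have the windows below.
PSMB8 chr6:32843998-32844297, minus strand: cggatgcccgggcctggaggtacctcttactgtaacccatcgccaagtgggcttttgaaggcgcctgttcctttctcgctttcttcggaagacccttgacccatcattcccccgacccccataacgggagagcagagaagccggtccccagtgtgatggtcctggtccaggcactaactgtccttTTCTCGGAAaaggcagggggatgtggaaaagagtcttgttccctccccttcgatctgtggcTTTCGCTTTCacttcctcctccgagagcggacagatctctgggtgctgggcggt
PSMB9 chr6:32853942-32854241, plus strand: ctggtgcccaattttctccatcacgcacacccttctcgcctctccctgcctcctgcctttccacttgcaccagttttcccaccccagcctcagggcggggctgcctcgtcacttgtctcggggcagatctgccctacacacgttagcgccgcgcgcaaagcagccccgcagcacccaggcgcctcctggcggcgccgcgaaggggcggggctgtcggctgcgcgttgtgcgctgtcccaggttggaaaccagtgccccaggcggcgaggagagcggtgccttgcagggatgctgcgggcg
PSMB10 chr16:67936801-67937100, minus strand: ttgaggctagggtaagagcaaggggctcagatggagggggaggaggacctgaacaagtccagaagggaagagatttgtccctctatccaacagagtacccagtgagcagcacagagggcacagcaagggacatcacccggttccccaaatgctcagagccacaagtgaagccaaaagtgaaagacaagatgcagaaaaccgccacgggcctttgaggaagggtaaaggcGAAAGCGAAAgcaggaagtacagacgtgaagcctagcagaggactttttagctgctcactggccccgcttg
PSME1 chr14:24135944-24136243, plus strand: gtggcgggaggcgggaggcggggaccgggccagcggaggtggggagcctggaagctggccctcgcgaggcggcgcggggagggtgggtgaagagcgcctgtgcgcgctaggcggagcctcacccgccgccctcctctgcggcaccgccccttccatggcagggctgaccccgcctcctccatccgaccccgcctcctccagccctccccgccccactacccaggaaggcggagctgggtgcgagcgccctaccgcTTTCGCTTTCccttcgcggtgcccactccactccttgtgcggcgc
PSME2 chr14:24146561-24146860, minus strand: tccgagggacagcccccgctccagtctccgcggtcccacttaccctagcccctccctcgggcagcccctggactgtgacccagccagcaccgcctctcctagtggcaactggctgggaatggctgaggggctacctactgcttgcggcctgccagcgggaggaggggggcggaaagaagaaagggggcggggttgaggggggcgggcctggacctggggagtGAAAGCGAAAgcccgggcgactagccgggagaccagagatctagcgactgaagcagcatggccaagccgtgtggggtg
PSMB5 chr14:23034851-23035150, minus strand: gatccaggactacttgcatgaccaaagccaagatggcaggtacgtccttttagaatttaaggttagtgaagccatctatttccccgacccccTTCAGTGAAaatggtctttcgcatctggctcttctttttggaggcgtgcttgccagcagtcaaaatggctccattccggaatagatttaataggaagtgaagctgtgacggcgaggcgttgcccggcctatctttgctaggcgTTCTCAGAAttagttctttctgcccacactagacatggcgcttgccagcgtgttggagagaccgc

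In these windows 250 bases precede the start. Counted from the 5′ end, the response element core began at base 247 for PSMB8, 230 for PSMB10, 223 for PSME2 and 256 for PSME1. The PSMB8 match runs across the start, those of PSMB10 and PSME2 lie before it and that of PSME1 lies after it. PSMB8 also had a gamma-activated site from base 186, before its start. The window of PSMB9 held neither. The PSMB9 start lies 488 bases from that of TAP1, a peptide transporter gene read in the opposite direction. The TAP1 window from 32853655 to 32853954 held overlapping matches to the response element core. They lie between the starts of TAP1 and PSMB9, outside the PSMB9 window. PSME1 and PSME2 lie 4403 bases apart. Of 41 members with a window, 7 held the response element core in at least 1 window (PSMA4, PSMB4, PSMB8, PSMB10, PSME1, PSME2, PSMG4), against 4.38% of 27305 genes. The gamma-activated site was found in 7 of 41 members, PSMB5 and PSMB8 among them, against 9.38% of genes. PSMB8 and PSMB5 each have another start with a window of its own, in which neither motif was found. A match is a description of the letters and was tied to no binding.

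Library totals ran from 4063382 to 10622670 counts in set 1 and from 3401565 to 12806042 in set 2, and the members together took a mean of 0.648% (BT-474 with afatinib) to 0.900% (SW48 with trametinib, set 1) of a library's counts. Set 1 stood apart from set 2. For every library, genes at 100 CPM (counts scaled to library size) or more in the untreated set 2 controls of another line, and under 1 CPM in those of its own line, were summed and set against that other line's level. In set 1 SW48 the highest such share was 14%, 21.5% and 5.42% with trametinib and 12.1%, 6.66% and 10.0% in controls, where set 2 libraries reached at most 4.23%. The highest set 2 shares were of BT-20 genes. They were 3.53% and 4.23% in SW48 trametinib libraries 2 and 3, 4.09% in SW48 palbociclib library 1 and 3.82% in SW620 palbociclib library 3. SW48 controls of set 2 had 0.236%, 0.177% and 0.164%, and SW620 controls 0.189%, 0.194% and 0.17%. ERBB2 averaged 988 CPM in the SW48 controls of set 1 against 101 CPM in those of set 2, and CDX2 2.76 CPM in the SW620 controls of set 1 against 34.2 CPM in those of set 2, each set scaled on its own. Reads that did not align made up 42.4%, 47.5% and 44.4% with trametinib and 38.0%, 26.7% and 22.4% in controls of set 1 SW48. In set 1 SW620, control library 3 differed from controls 1 and 2 by several fold in members without a common direction. PSMG2, for example, stood at 16.3 CPM there against 73.2 and 80.0 CPM, and PSMA7 at 1600 CPM against 816 and 900 CPM. The epithelial genes EPCAM and KRT8 were high in every line. Epithelial CDH1 had 55.8, 50.05 and 46.9 CPM in set 2 SW620 controls, where the mesenchymal gene VIM had 235, 232 and 228 CPM. Intestinal genes were mixed. In set 2 controls CDX2 had 105, 91.8 and 93.6 CPM in SW48, and VIL1 59.5, 56.7 and 59.1 CPM in SW620. Both were also detected in NCI-N87 and MKN-45. KRT20 and CDX1 averaged under 1 CPM in each control group, as did the lymphoid and myeloid markers CD3D, CD3E, MS4A1, CD14 and ITGAM. Other markers of blood cells were detected. PTPRC, the pan-leukocyte gene, averaged 0.995 CPM with trametinib and 4.15 CPM in controls of set 1 SW48, and 3.08 CPM with trametinib, 2.61 CPM with palbociclib and 3.84 CPM in controls of set 2 SW48. CD74, the MHC class II invariant chain, averaged 31.0 CPM in NCI-N87 controls and 7.17 CPM in BT-20 controls, the lines highest in PSMB9, and in set 1 SW48 it was at or near 0 apart from trametinib library 2 (15.6 CPM) and control 3 (18.5 CPM). The part of these markers in the immunoproteasome levels was not tested.

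Before any drug, the immunoproteasome genes differed between the lines more than the constitutive subunits they replace. PSMB8 had 94.5, 102 and 118 CPM in NCI-N87, 83.2, 87.5 and 78.5 CPM in BT-20, and 52.5, 50.3 and 58.5 CPM in SW48. In SW620 it had 27.9, 27.5 and 23.6 CPM, in MKN-45 21.7, 17.2 and 22.0 CPM, and in BT-474 5.96, 5.12 and 4.80 CPM. No 2 neighbours in that order overlapped, and the highest line mean was 19.9 times the lowest, the widest span of the 45 members. The BT-474 level rests on 41, 37 and 35 counts.

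PSMB9 followed an order close to that of PSMB8 with fewer clear steps. It averaged 48.7 ± 2.75 CPM in BT-20 and 46.2 ± 13.9 CPM in NCI-N87 (SD, n = 3 each), and these lines overlapped. NCI-N87 control 1 stood at 31.1 CPM against 49.3 and 58.4 CPM in the other 2. SW48 followed at 9.72 ± 1.19 CPM, then SW620 at 5.11 ± 0.244, MKN-45 at 4.21 ± 0.761 and BT-474 at 3.38 ± 0.807 CPM, and neighbours among the last 3 overlapped. PSMB10 had another order: 145, 140 and 139 CPM in BT-20, 61.0 ± 3.27 CPM in SW620 and 47.2 ± 10.2 CPM in NCI-N87, with MKN-45 (23.4 ± 0.522), SW48 (21.5 ± 4.25) and BT-474 (18.8 ± 1.02) overlapping at the low end. SW48 thus ranked 3 of 6 for PSMB8 but stood among the low lines for PSMB10, while SW620 ranked 2 for PSMB10 and 4 for PSMB8. The spans were 14.4-fold for PSMB9 and 7.52-fold for PSMB10.

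**Figure D1:**
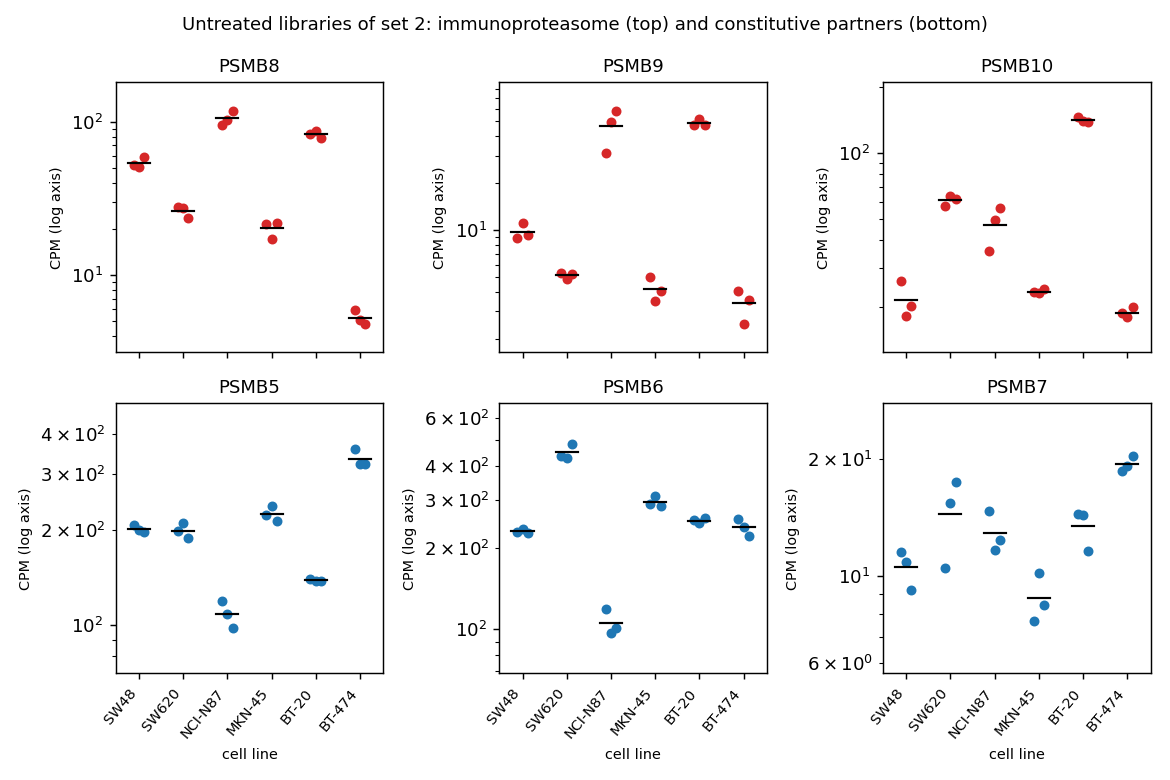
CPM (log axis) of PSMB8, PSMB9 and PSMB10 (top) and of PSMB5, PSMB6 and PSMB7 (bottom) in the 3 untreated set 2 libraries of each of 6 lines, where points are libraries and bars are means. PSMB8 separates the lines from about 105 CPM in NCI-N87 down to 5.29 CPM in BT-474, while the constitutive genes move over a narrower range.

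Each line was then set against the mean of the other 5 with edgeR's quasi-likelihood test, a member being called at a Benjamini-Hochberg adjusted p under 0.05 over all genes. In BT-474 all 3 immunoproteasome genes were lower, by a log2 difference of -3.16 (SE 0.12, adjusted p = 5.99e-14) for PSMB8, -2.0 (SE 0.21, adjusted p = 7.74e-08) for PSMB9 and -1.27 (SE 0.12, adjusted p = 2.91e-08) for PSMB10, while PSMB5 (1.01) and PSMB7 (0.73) were higher and PSMB6 was level (0.00). In BT-20 PSMB8 (1.59), PSMB9 (2.60) and PSMB10 (2.20) were higher and PSMB5 was lower at -0.53, while PSMB6 (0.08) and PSMB7 (0.08) were not called. NCI-N87 was higher for PSMB8 (2.02), PSMB9 (2.55) and PSMB10 (0.34) and lower for PSMB5 (-0.94) and PSMB6 (-1.40), the PSMB10 call being lost without its control library 3 (0.19, adjusted p = 0.163). MKN-45 was lower for all 3 immunoproteasome genes at -0.82, -1.60 and -0.88. The colorectal lines were split: SW48 was higher for PSMB8 (0.81) and lower for PSMB10 (-1.09), with PSMB9 at -0.21 (adjusted p = 0.28), and SW620 was lower for PSMB8 (-0.44) and PSMB9 (-1.33) and higher for PSMB10 (0.71).

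Other members with wide spans between untreated lines were spread over the roles. PSMB3, a structural beta subunit, had 616 ± 14.7 CPM in BT-474, against 227 ± 25.7 in NCI-N87 and 63.4 ± 4.61 in BT-20, a 9.71-fold span. It lies 0.924 Mb from ERBB2 on chromosome 17, and ERBB2 had 1151 CPM in BT-474 and 1918 CPM in NCI-N87, values whose part in the PSMB3 level was not tested. PSME2, the PA28 beta subunit, ran from 17.3 ± 2.23 CPM in SW48 to 158 ± 6.81 CPM in BT-474, so the line lowest for PSMB8 was the highest for PSME2. PSMD5, a chaperone of the regulatory particle, spanned 8.37-fold (lowest in MKN-45) and PSMG1, a core assembly chaperone, 6.87-fold (lowest in NCI-N87, highest in SW620). Over the 45 members the median span was 2.57-fold, and by role it was 1.81-fold for structural beta genes, 1.97-fold for non-ATPases, 2.55-fold for ATPases, 2.83-fold for the alpha ring, 3.09-fold for constitutive catalytic genes and 14.4-fold for the immunoproteasome genes.

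The number of members called in each line stayed near, or moderately above, that of all genes. In MKN-45 22 members were higher and 15 lower, 82.2% in all against 63.2% of all genes tested (34.2% higher, 28.9% lower). BT-20 had 15 higher and 20 lower, 77.8% against 67.3% (37% higher, 30.4% lower), and NCI-N87 10 higher and 22 lower, 71.1% against 61.9% (34.5% higher, 27.4% lower). In the other lines the shares were close to the background. SW48 had 13 higher and 15 lower, 62.2% against 60.5% (33.9% higher, 26.5% lower), SW620 19 higher and 8 lower, 60% against 63.5% (37.1% higher, 26.4% lower), and BT-474 15 higher and 14 lower, 64.4% against 60.9% (33.7% higher, 27.2% lower). The largest other differences were PSMG4 (0.76) and PSMD9 (0.59) higher and PSME2 (-2.61) and PSMD7 (-1.0) lower in SW48. In SW620 PSMD10 (1.34), PSMG1 (1.33) and PSMD7 (1.25) were higher and PSMD2 (-0.61) and PSMB3 (-0.60) lower. PSMG3 (1.05) was higher and PSMG1 (-1.96) and PSMD6 (-1.23) lower in NCI-N87, and PSMA4 (1.34), PSMC4 (1.27) and PSME2 (1.16) were higher and PSMD5 (-1.86) and PSMF1 (-1.08) lower in MKN-45. PSMB3 (-1.45), PSMG4 (-1.34) and PSMC3 (-0.97) were lower in BT-20, and PSMB3 (2.50), PSMD5 (1.80) and PSME2 (1.26) higher in BT-474. Scaled by library totals alone, which move the median of all genes by 0.27 in BT-20 and -0.16 in BT-474, members higher and lower were 18 and 13 in BT-20, 12 and 20 in BT-474, 16 and 12 in SW48 and 15 and 13 in SW620.

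Among the 10 comparisons of a drug with its control, members were called in 6. The map of fold changes shows a rise of PSMB9, PSME1 and PSME2 in SW48 under both drugs. In BT-474 under afatinib most members fell, and no immunoproteasome gene was called lower. In SW620 with palbociclib 4 members were higher and 15 lower. Little or nothing was called in SW620 with trametinib, NCI-N87, MKN-45 and BT-20.

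**Figure D2:**
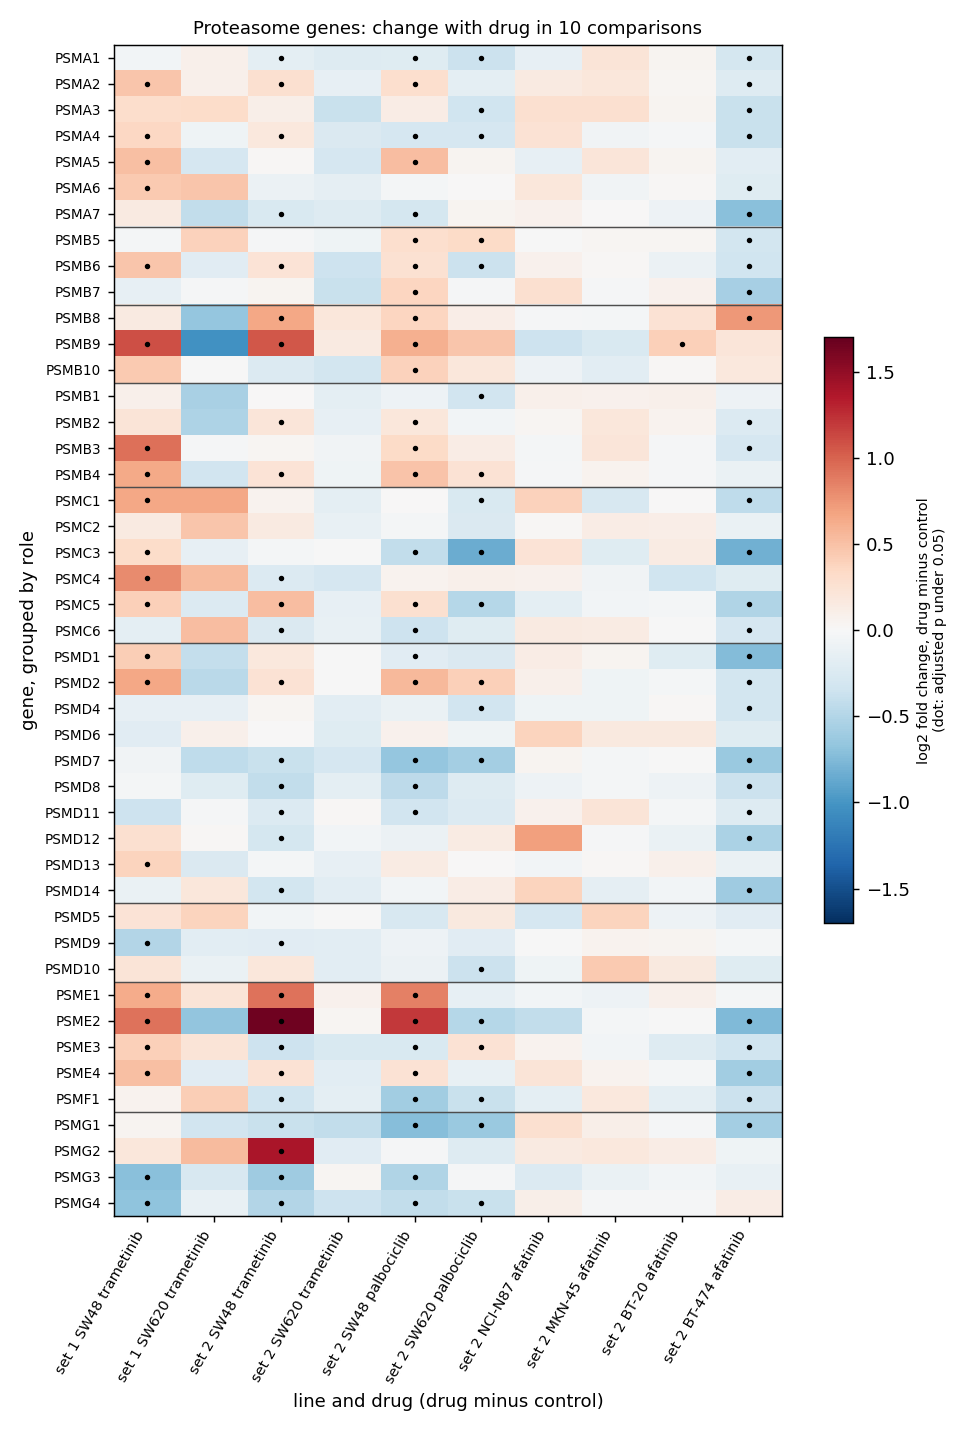
Log2 fold change, drug over control, of the 45 tested members (rows, by role) in the 10 drug comparisons (columns), with a dot where edgeR's adjusted p was under 0.05. BT-474 with afatinib lies below 0 in most rows and at 0.74 for PSMB8, while PSME2 lies above 0 in the 3 SW48 comparisons at 0.92, 1.65 and 1.2.

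With trametinib, SW48 had higher levels of the immunoproteasome gene PSMB9 and of both PA28 genes in both sets. In set 2, PSMB9 had 20.2, 21.1 and 20.3 CPM with trametinib against 8.85, 11.1 and 9.24 CPM in controls, with no overlap, a log2 fold change of 1.06 (SE 0.13, edgeR adjusted p = 1.06e-05). In set 1 it had 61.9, 48.3 and 66.7 CPM with trametinib against 20.9, 28.5 and 33.9 CPM in controls, also without overlap, and the log2 fold change was 1.09 (SE 0.20, edgeR adjusted p = 0.00417). The PSMB9 level was higher in set 1 in both groups, each set scaled on its own. In set 2, BT-20 genes stood at 3.53% and 4.23% of their level in SW48 trametinib libraries 2 and 3. The highest share in trametinib library 1 was 0.364%, of MKN-45 genes. BT-20 controls averaged 48.7 CPM of PSMB9. The part of the other lines' reads in the values of either set was not tested.

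PSMB8 passed the test in set 2, where it had 95.1, 81.9 and 80.4 CPM with trametinib against 52.5, 50.3 and 58.5 CPM in set 2 controls (log2 fold change 0.66, SE 0.08, edgeR adjusted p = 2.05e-05). In set 1 the groups overlapped at 154, 103 and 111 CPM with trametinib and 122, 115 and 98.1 CPM in controls (0.15, SE 0.17, adjusted p = 0.522). PSMB10 passed in neither set. It had 18.9, 18.2 and 18.2 CPM with trametinib against 26.2, 18.1 and 20.1 CPM in controls of set 2 (-0.23, adjusted p = 0.143), which became a lower call without control library 2 (-0.34, edgeR adjusted p = 0.038), and 26.7, 29.6 and 30.6 CPM against 22.8, 18 and 23.4 CPM in set 1 (0.45, adjusted p = 0.0644), a higher call when scaled by library totals (0.59, edgeR adjusted p = 0.0221). The difference between sets was not tested. Of the constitutive partners, PSMB6 rose in both sets (0.24 in set 2, 0.47 in set 1), PSMB5 gave -0.02 and -0.03 and PSMB7 0.05 and -0.13, none of these last 4 called.

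Palbociclib gave SW48 a rise of all 3 immunoproteasome genes and all 3 constitutive partners. PSMB9 had 13.7, 15.7 and 15.1 CPM with palbociclib against 8.85, 11.1 and 9.24 CPM in the controls that trametinib shares (0.61, SE 0.15, edgeR adjusted p = 0.0026). Palbociclib library 1 held BT-20 genes at 4.09% of their level, and the part of these reads was not tested. PSMB8 had 72.8, 73.0 and 62.2 CPM against 52.5, 50.3 and 58.5 CPM (0.37, SE 0.08, adjusted p = 0.00163) without overlap. PSMB10, at 28.9, 29.4 and 25.9 CPM against 26.2, 18.1 and 20.1 CPM, overlapped in 1 library. Its log2 fold change of 0.39 (SE 0.13, adjusted p = 0.0166) lost the call without palbociclib library 2 (0.35, adjusted p = 0.058), control 2 (0.28, adjusted p = 0.0862) or control 3 (0.33, adjusted p = 0.0753), and with DESeq2. PSMB5 (0.29), PSMB6 (0.26) and PSMB7 (0.37) rose as well, PSMB7 at an edgeR adjusted p of 0.0461. The PSMB7 call was lost without palbociclib 1 (0.34) or 3 (0.31) or control 1 (0.42), 2 (0.39) or 3 (0.27), at adjusted p of 0.0517 to 0.178, and also with no filter, with DESeq2, with all groups in 1 fit and with the replicate block.

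Both PA28 genes rose in all 3 SW48 comparisons. PSME2 had 48.2, 52.5 and 64.2 CPM with trametinib and 37.2, 43.4 and 38.4 CPM with palbociclib, against 16.1, 15.9 and 19.8 CPM in set 2 controls. That is a log2 fold change of 1.65 (SE 0.12, edgeR adjusted p = 1.49e-07) with trametinib and 1.2 (SE 0.11, edgeR adjusted p = 3.51e-07) with palbociclib. PSME1, its partner subunit, had 173, 172 and 152 CPM with trametinib and 162, 156 and 149 CPM with palbociclib, against 95.2, 81.4 and 82.5 CPM in controls (0.92 and 0.85). In set 1, PSME2 had 88.8, 90.3 and 83.6 CPM with trametinib against 49.4, 43.2 and 47.0 CPM in controls (0.92, SE 0.11, edgeR adjusted p = 0.000427), and PSME1 191, 172 and 197 CPM against 118, 133 and 113 CPM (0.63, SE 0.10). All drug libraries lay above all controls for both genes in each of the 3 comparisons. BT-20, whose genes had the highest shares in set 2 SW48 drug libraries, had 130, 141 and 123 CPM of PSME2 in its controls. The part of these reads was not tested.

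**Figure D3:**
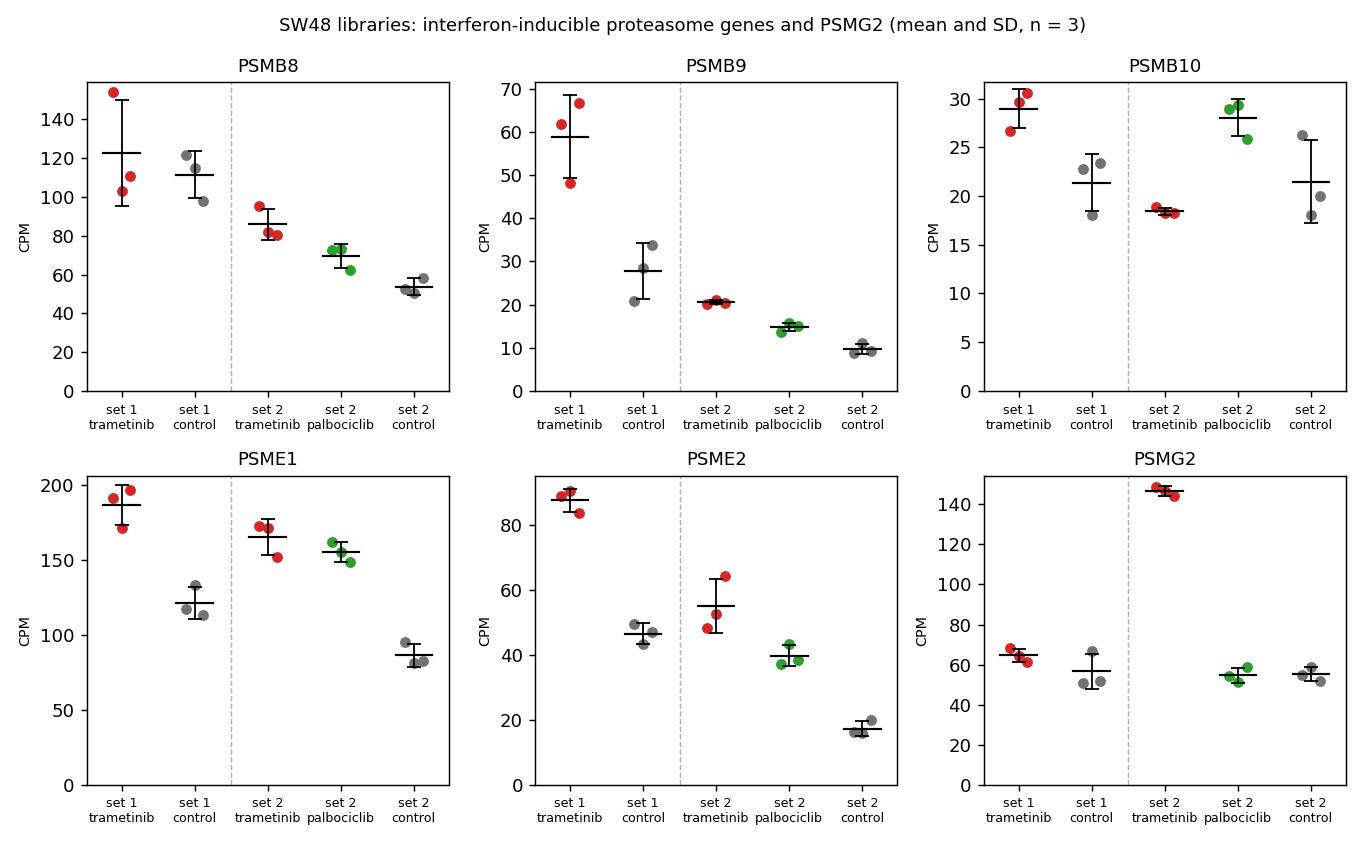
CPM of PSMB8, PSMB9, PSMB10, PSME1, PSME2 and PSMG2 in each SW48 library of set 1 (trametinib, control) and set 2 (trametinib, palbociclib, control), with mean and SD over 3 libraries. PSMB9, PSME1 and PSME2 lie above the controls in every drug library, and PSMG2 stands at 144 to 149 CPM with trametinib in set 2.

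PSMG2, a core assembly chaperone, was the member with the smallest adjusted p in SW48. It had 149, 147 and 144 CPM with trametinib and 54.1, 51.3 and 58.6 CPM with palbociclib, against 54.9, 59.0 and 52.0 CPM in set 2 controls, a log2 fold change of 1.39 with trametinib (SE 0.07, edgeR adjusted p = 4.21e-09). In set 1 the groups overlapped, at 68.1, 64.1 and 61.5 CPM with trametinib against 50.9, 66.9 and 52.0 CPM in controls, and whether the sets differ was not tested. Its obligate partner PSMG1 fell with trametinib in set 2 (-0.39, 51.3, 50.9 and 40.8 CPM against 57.8, 65.1 and 61.3 CPM) and with palbociclib (-0.73, 39.7, 34.0 and 37.5 CPM). PSMG3 and PSMG4, which form the other chaperone pair, fell in all 3 SW48 comparisons: PSMG3 by 0.61 with trametinib in set 2, 0.51 with palbociclib and 0.71 with trametinib in set 1, and PSMG4 by 0.50 with trametinib in set 2 and 0.69 in set 1.

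Over all roles, 13 of 45 members were higher and 15 lower in set 2 SW48 with trametinib (60.1% of all genes were called, 30.1% in each direction), and the median over 45 members was 0.01 against 0.01 over all genes. Of the 10 non-ATPases 5 were lower and 1 higher, a small list whose difference from those shares was not tested. The lowest of them was PSMD8, at 152, 156 and 144 CPM against 199, 193 and 204 CPM (-0.41). The inhibitor PSMF1 fell (-0.34). Scaled by library totals alone the split was 19 higher and 10 lower, with the median of all genes moved by 0.14. With palbociclib 16 members were higher and 14 lower (66.7% of members against 57.5% of all genes, 28.3% higher and 29.2% lower). PSMD2, a scaffold of the regulatory particle, had 625, 592 and 554 CPM with palbociclib against 415, 401 and 394 CPM in controls (0.55), and PSMA5 rose by 0.52. PSMD7, the lid subunit that pairs with the deubiquitinase PSMD14, had 128, 118 and 121 CPM against 181, 183 and 217 CPM (-0.66), PSMF1 fell by 0.59, and the structural beta genes rose in 3 of 4.

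Set 1 SW48 with trametinib differed in that 19 members were higher and 3 lower, or 42.2% of members higher against 16% of all genes and 6.67% lower against 19.4%, with either direction at 48.9% against 35.4%. The median over members was 0.23, against 0.01 over all genes. Higher were 4 of 7 alpha-ring genes, 4 of 6 ATPases, 4 of 5 activators and inhibitors, 3 of 10 non-ATPases and 2 of 4 structural beta genes. PSMB3 had 138, 163 and 146 CPM with trametinib against 66.6, 82.8 and 85.3 CPM in controls (0.94, SE 0.12, edgeR adjusted p = 0.000857), PSMC4, an ATPase, had 327, 388 and 368 CPM against 176, 183 and 268 CPM (0.80), and PSMD2 had 819, 777 and 822 CPM against 465, 540 and 536 CPM (0.66). Lower were PSMG3, PSMG4 and PSMD9, a chaperone (-0.50), which lost its call without trametinib library 2 (-0.47, edgeR adjusted p = 0.0502) and by library totals (-0.37). Leaving out any 1 of the 6 libraries gave 19 or 20 calls, but a fit that shared its estimate of spread with the SW620 libraries of set 1 called 5, PSMB9 (adjusted p = 0.0899), PSME2 (0.0566), PSMB6 (0.0776), PSMB3 (0.0879) and PSMD9 (0.182) not among them. The share of unaligned reads given above was higher in every trametinib library than in every control, while the share of other lines' genes overlapped between the groups. Their part in the result was not tested.

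Set side by side in SW48 of set 2, trametinib left PSMB9 (0.46, SE 0.12, edgeR adjusted p = 0.00569), PSMB8 (0.30, adjusted p = 0.0136) and PSMG2 (1.41) higher than palbociclib did, and PSMB10 lower (-0.62, SE 0.12, edgeR adjusted p = 0.000817). PSMA4 (0.46) was also higher with trametinib, and PSMA5 (-0.49), PSMD2 (-0.30) and PSMB5 (-0.30) were lower. In all 11 members were higher and 9 lower, where 41.8% of all genes were called (21.2% higher, 20.6% lower). By library totals the split was 17 and 8. So the drugs shared controls and a rise of PSMB8 and PSMB9, but differed by the test in PSMB8, PSMB9 and PSMB10, the last in the other direction. The PSMB9 difference lost its call where every set 2 group shared a fit (adjusted p = 0.0667). The PSMB8 difference was not followed through the alternative fits. In SW620 the same comparison called 4 members higher and 7 lower (33.1% of all genes, 16.3% higher and 16.8% lower). PSMC3 (0.85), PSME2 (0.53) and PSMC5 (0.35) were higher with trametinib than with palbociclib, and PSME3 (-0.49), PSMB10 (-0.49) and PSMD2 (-0.40) lower. The SW620 count was 4 without palbociclib library 1, 6 without palbociclib 2 and 7 without trametinib 2 or 3, and PSMB10 was not called without any 1 of these 4 (-0.47, -0.49, -0.37 and -0.39), PSME2 (0.44, adjusted p = 0.0527) without palbociclib 1, or PSMC5 without palbociclib 1 (0.35), palbociclib 2 (0.32) or trametinib 1 (0.30).

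SW620 gave no call with trametinib. In set 2, 0 of 45 members and 0% of all genes were called by edgeR and 0 members by DESeq2, while 6 members had an unadjusted p under 0.05. PSMB8 had 25.6, 30.4 and 35.1 CPM with trametinib against 27.9, 27.5 and 23.6 CPM in controls (0.20, interval -0.08 to 0.47 at 2 SE), and PSMB9 4.76, 7.01 and 5.48 CPM against 5.30, 4.83 and 5.19 CPM (0.15, interval -0.27 to 0.58). PSMB10 had 64.6, 41.7 and 42.7 CPM against 57.4, 63.9 and 61.7 CPM (-0.31, edgeR adjusted p = 0.361), trametinib library 1 standing with the controls. Without that library 4 members were called lower, PSMB10 (-0.53, adjusted p = 0.0262) among them. PSMB5, PSMB6 and PSMB7 gave -0.07, -0.35 and -0.38. In set 1, 0 members and 0% of all genes were called by edgeR, 0 by DESeq2 and 0 at an unadjusted p under 0.05, and the count stayed at 0 without control library 3. PSMB8 there had 14.7, 9.29 and 7.52 CPM with trametinib against 17.6, 12.3 and 18.5 CPM in controls (-0.66, interval -1.32 to 0.01), and PSMB9 2.84, 3.45 and 1.45 CPM against 6.32, 2.05 and 7.02 CPM (-1.02, interval -2.20 to 0.15), so the intervals are wide.

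Palbociclib in SW620 called 4 members higher and 15 lower, 42.2% of members against 35% of all genes (17.6% higher, 17.4% lower). PSMC3, an ATPase, had 88.2, 76.2 and 77.3 CPM with palbociclib against 159, 154 and 134 CPM in controls (-0.84, SE 0.09, edgeR adjusted p = 8.17e-05). PSMG1 had 67.3, 64.7 and 67.0 CPM against 98.8, 116 and 104 CPM (-0.63), and PSMD7 467, 455 and 468 CPM against 662, 863 and 620 CPM (-0.58). For these 3 genes every palbociclib library lay below every control. PSMD2 rose with 336, 333 and 352 CPM against 271, 251 and 272 CPM (0.41, edgeR adjusted p = 0.00174), and PSMB5 rose with 251, 239 and 234 CPM against 198, 209 and 188 CPM (0.33), while PSMB6 fell (-0.36). PSME2, higher in SW48 under the same drug, had 50.6, 57.0 and 63.7 CPM with palbociclib against 78.4, 100 and 69.2 CPM (-0.49, adjusted p = 0.0179), a call lost without palbociclib 1 (-0.41), palbociclib 2 (-0.49) or control 2 (-0.33).

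The immunoproteasome genes did not pass in that comparison, with log2 fold changes of 0.12 for PSMB8, 0.47 for PSMB9 and 0.19 for PSMB10. PSMB9 had 6.39, 7.83 and 6.33 CPM with palbociclib against 5.30, 4.83 and 5.19 CPM, all above the controls but at an edgeR adjusted p of 0.0953. PSMF1 fell (-0.37), while PSME3, the nuclear activator, and PSMB4, a structural subunit, rose by 0.24 each. Each of these 3 calls was lost when any of several libraries was left out. PSMF1 was not called without palbociclib 2 or 3 or control 1 or 2 (-0.36 to -0.29), PSME3 without palbociclib 1 or 3 or any control (0.20 to 0.28), and PSMB4 without any palbociclib library or control 1 or 2 (0.17 to 0.28). PSME3 and PSMB4 were also not called with the replicate block, nor PSMB4 with no filter or with all groups in 1 fit.

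BT-474 with afatinib showed the broadest fall of proteasome genes. None of its 3 immunoproteasome genes was called lower, nor were most of the chaperone genes. Lower were 28 of 45 members, 62.2% against 21.8% of all genes, and higher was PSMB8 alone (20.9% of all genes), with the either-direction share at 64.4% against 42.7%. The median over members was -0.29, against 0.01 over all genes. Leaving out any 1 library gave 26 to 29 calls, and library totals alone gave 22 lower and 1 higher with the median of all genes moved by 0.14. Lower were 6 of 7 alpha-ring genes, all 3 constitutive catalytic genes, 2 of 4 structural beta genes, 4 of 6 ATPases, 8 of 10 non-ATPases, 4 of 5 activators and inhibitors, 1 of 4 core chaperones and none of the 3 chaperones of the regulatory particle.

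PSMC3 had 65.8, 58.8 and 62.7 CPM with afatinib against 111 CPM in each control (-0.82, SE 0.07, edgeR adjusted p = 2.29e-06). PSME2 had 94.2, 100 and 85.0 CPM against 165, 153 and 155 CPM (-0.75, SE 0.07), PSMD1, a scaffold of the regulatory particle, 185, 177 and 180 CPM against 344, 295 and 269 CPM (-0.73), and PSMA7, an alpha-ring subunit, 397, 379 and 384 CPM against 695, 605 and 614 CPM (-0.71). None of these 4 overlapped between groups. PSMB5 had 274, 268 and 258 CPM with afatinib against 360, 323 and 322 CPM (-0.32), PSMB6 178, 188 and 194 CPM against 256, 239 and 220 CPM (-0.34) and PSMB7 11.7, 15.1 and 12.2 CPM against 18.6, 19.1 and 20.3 CPM (-0.56). The inhibitor PSMF1 fell as well (-0.36).

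PSMB8, in contrast, had 9.70, 8.92 and 7.65 CPM with afatinib against 5.96, 5.12 and 4.80 CPM in BT-474 controls, without overlap (0.74, SE 0.20, edgeR adjusted p = 0.00951). This rests on 57, 52 and 47 counts with afatinib and 41, 37 and 35 in controls, and DESeq2 put the adjusted p at 0.0779. PSMB9 had 3.06, 2.57 and 5.86 CPM against 4.07, 2.49 and 3.56 CPM (0.20, SE 0.35), and PSMB10 16.5, 24.9 and 21.8 CPM against 18.6, 17.9 and 19.9 CPM (0.18, SE 0.14), both with overlapping groups. Reads of another line's genes were 1.19%, 1.07% and 0.831% with afatinib and 0.305%, 0.284% and 0.321% in controls, highest for MKN-45 in 5 of the 6 libraries. MKN-45 had a PSMB8 level of 20.3 ± 2.67 CPM, and the part of these reads was not tested.

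BT-20, the other breast line, changed little. PSMB9 was its 1 member called (2.22% of members against 0.585% of all genes, 0.273% higher and 0.312% lower), with 58.6, 63.2 and 68.7 CPM with afatinib against 47.0, 51.8 and 47.2 CPM in controls (0.41, SE 0.08, edgeR adjusted p = 0.0487). The 3 afatinib libraries lay above the controls, but the call was lost without afatinib library 2 (0.41) or 3 (0.35) or control 1 (0.39), 2 (0.45) or 3 (0.39), at adjusted p of 0.101 to 0.243, and with all groups in 1 fit or the replicate block. PSMB8 had 96.8, 100 and 94.4 CPM against 83.2, 87.5 and 78.5 CPM, also above every control (0.25, adjusted p = 0.138), and PSMB10 gave 0.02. The median over members was 0.00. PSMB5, PSMB6 and PSMB7 gave 0.04, -0.10 and 0.07.

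**Figure D4:**
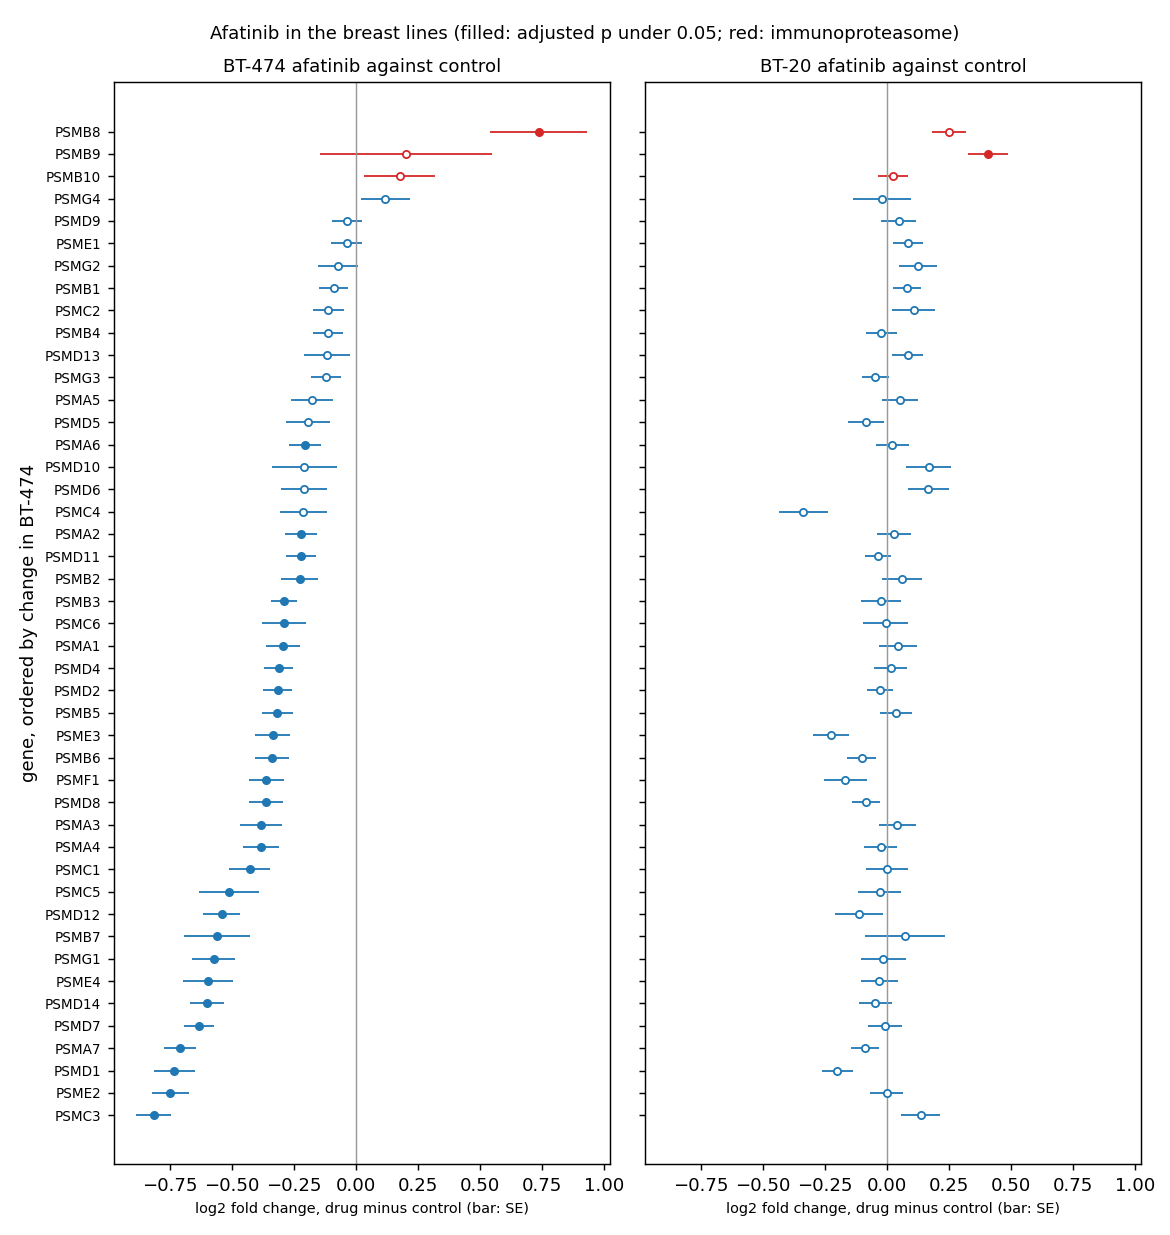
Log2 fold change, afatinib over control, with its standard error, of the 45 tested members in BT-474 and in BT-20, where filled points passed edgeR's adjusted p under 0.05 and red marks the immunoproteasome genes. In BT-474 most members lie below 0 and PSMB8 lies at 0.74, whereas in BT-20 the members lie around 0 and PSMB9 is called at 0.41.

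In the stomach lines no member passed. For NCI-N87 with afatinib 0 of 45 members and 0% of all genes were called by edgeR, 0 members by DESeq2 and 0 at an unadjusted p under 0.05. PSMB8 had 104, 92.3 and 111 CPM with afatinib against 94.5, 102 and 118 CPM in controls (-0.03, interval -0.31 to 0.25), PSMB9 35.2, 36.0 and 36.6 CPM against 31.1, 49.3 and 58.4 CPM (-0.36, interval -0.78 to 0.06) and PSMB10 42.6, 41.7 and 48.3 CPM against 35.9, 49.6 and 56.0 CPM (-0.09). Control library 1 was the lowest control for all 3 genes. Without it 7 members were called higher and 1 lower, the lower one being PSMB9 (-0.58, edgeR adjusted p = 0.0157). For MKN-45, 0 members and 0% of all genes were called by edgeR, 0 members by DESeq2 and 3 had an unadjusted p under 0.05. PSMB8 had 17.1, 21.1 and 21.0 CPM with afatinib against 21.7, 17.2 and 22.0 CPM (-0.04, interval -0.34 to 0.26), PSMB9 gave -0.26 (interval -1.0 to 0.47) and PSMB10 -0.18 (interval -0.40 to 0.05). PSMB5, PSMB6 and PSMB7 gave -0.01, 0.07 and 0.27 in NCI-N87 and 0.03, 0.02 and -0.01 in MKN-45.

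Setting each immunoproteasome count over the constitutive subunit it replaces, within the same library, removes the scaling between libraries. The log2 ratio of PSMB8 to PSMB5 in BT-474 averaged -4.92 with afatinib and -5.97 in controls, and that of PSMB10 to PSMB7 0.68 and -0.04, in both cases with every afatinib library above every control. The BT-474 difference in PSMB10 to PSMB7 pairs the fall of PSMB7 (-0.56) with PSMB10, which was not called (0.18). That in PSMB8 to PSMB5 pairs the rise of PSMB8 (0.74) with the fall of PSMB5 (-0.32). For SW48 with trametinib in set 2, PSMB8 to PSMB5 was 0.68 higher and PSMB9 to PSMB6 0.83 higher than in controls, all libraries above. PSMB10 to PSMB7 overlapped there (-0.26). In set 1 PSMB9 to PSMB6 was 0.63 and PSMB10 to PSMB7 0.61 higher, all above, while PSMB8 to PSMB5 overlapped (0.18). The set 1 PSMB10 to PSMB7 ratio had a lowest trametinib value of 0.65 against a highest control of 0.60, and neither gene was called. Palbociclib moved the PSMB9 to PSMB6 ratio above all controls in SW48 (by 0.35) and in SW620 (by 0.82). In SW620 with trametinib in set 2 it was also above all controls (by 0.48), where neither gene was called. The SW620 palbociclib value pairs the PSMB9 difference of 0.47, which did not pass, with the fall of PSMB6, and PSMB8 to PSMB5 with palbociclib there was below all controls (by -0.21). In BT-20 PSMB8 to PSMB5 (0.22) and PSMB9 to PSMB6 (0.51) were above all controls with afatinib, and in NCI-N87 and MKN-45 all 3 ratios overlapped. These ratios are given without a test, since an exact permutation test of 3 against 3 libraries cannot reach a p under 0.05.

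**Figure D5:**
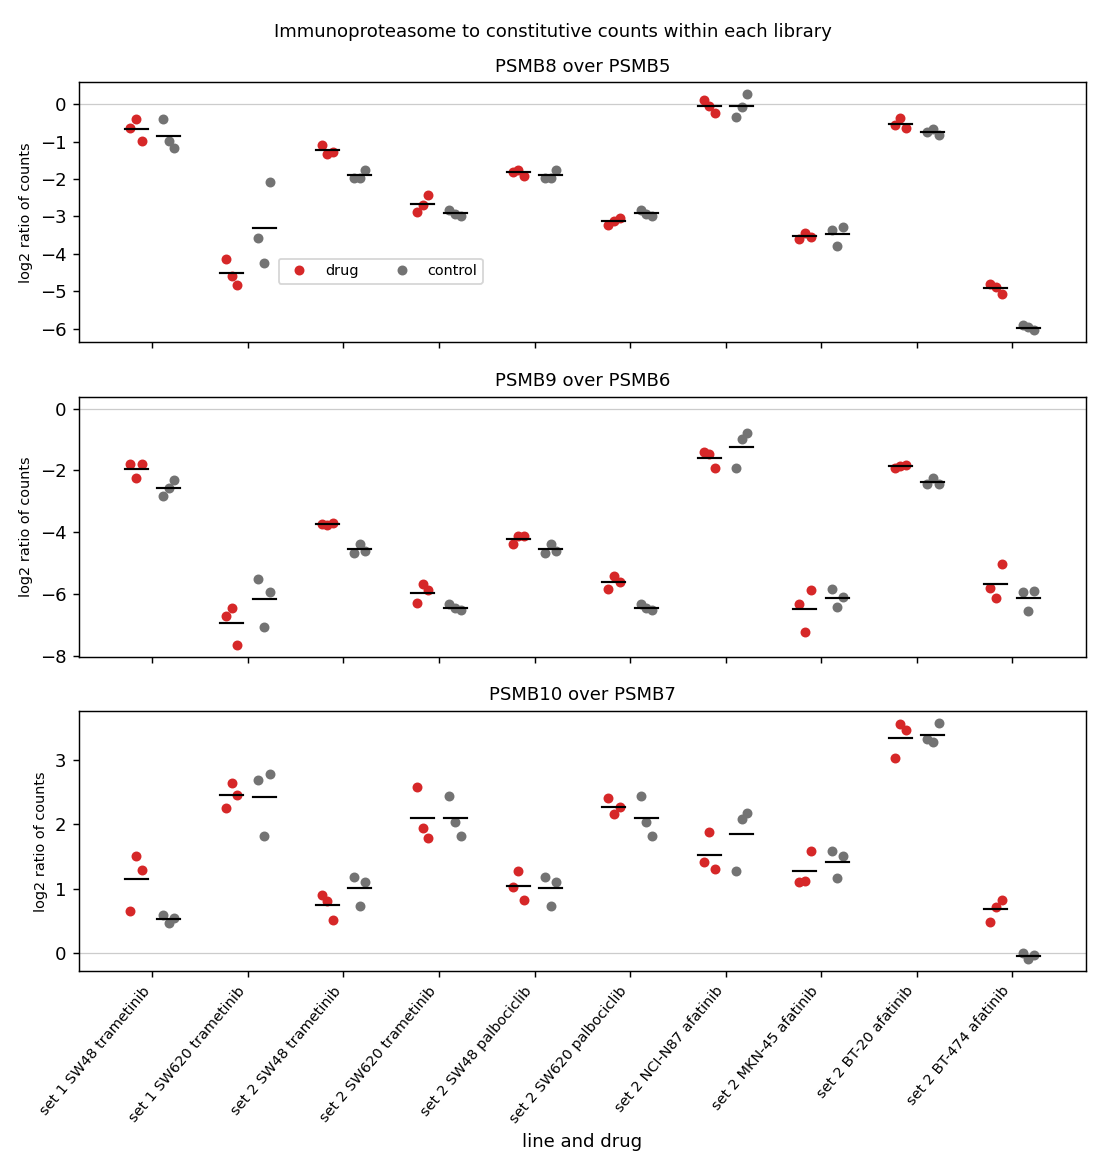
Log2 ratio of counts of PSMB8 to PSMB5, PSMB9 to PSMB6 and PSMB10 to PSMB7 in every library, drug (red, left) and control (grey, right) for each of 10 comparisons, with bars at group means. The level of the ratio differs more between lines than between drug and control, and the drug libraries lie clear above the controls for PSMB8 to PSMB5 in BT-474 (-4.92 against -5.97) and in set 2 SW48 with trametinib.

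Whether 2 lines answered a drug differently was tested as a difference of their fold changes. For trametinib in set 2, SW620 minus SW48 called 1 member higher and 10 lower (24.4% of members against 28.2% of all genes, 15.3% higher and 12.9% lower), with PSME2 (-1.60, SE 0.20, edgeR adjusted p = 7.09e-05), PSMG2 (-1.56) and PSMB9 (-0.89, SE 0.23, edgeR adjusted p = 0.01) lowest, PSMB6 lower (-0.57) and PSMG3 higher (0.66). PSMB8 gave -0.44 (adjusted p = 0.0632) and PSMB10 -0.06. The count was 7 without SW48 control 2. For palbociclib 3 members were higher and 9 lower (26.7% against 25.7% of all genes, 14.6% higher and 11.2% lower): PSME2 (-1.68), PSME1 (-0.98) and PSMC5 (-0.74) were lowest, PSMB6 was lower (-0.61) and PSME3 (0.52), PSMG3 (0.50) and PSMA7 (0.36) were higher, with PSMA7 not called without SW48 control 1 (0.31) or 3 (0.29) or with all groups in 1 fit. No immunoproteasome gene was called there. For trametinib in set 1, PSME2 (-1.59) and PSMB4 (-0.96) were called (4.44% of members against 6.73% of all genes, 3.95% higher and 2.78% lower), and PSMB9 gave -2.11 (adjusted p = 0.0557). The count was 0 without each of 9 of the 12 libraries, namely every SW48 library and every SW620 trametinib library, and 11 without SW620 control 3.

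For afatinib, BT-474 minus BT-20 called 22 members lower and 1 higher, 51.1% of members against 23.8% of all genes (10.2% higher, 13.6% lower). PSMC3 (-0.97, SE 0.10, edgeR adjusted p = 2.06e-06), PSME2 (-0.76) and PSMB7 (-0.65) were lowest, PSMB5 was lower (-0.37), and PSMB8 was the 1 higher (0.47, SE 0.16, edgeR adjusted p = 0.0424). The PSMB8 call was lost without 10 of the 12 libraries in turn, all but BT-474 control 1 and afatinib 3 (0.42 to 0.50), and with no filter, with DESeq2 and with all groups in 1 fit. The PSMB7 call was lost without BT-474 afatinib 1 or 3, any BT-474 control, BT-20 afatinib 1 or BT-20 control 3 (-0.65 to -0.49), and with DESeq2, all groups in 1 fit or library totals. The count of members was 14 without BT-474 control 1, 15 without BT-474 afatinib 2 and 9 by library totals. NCI-N87 minus MKN-45 called 0 members against 0.0145% of all genes (0.00725% in each direction). At an unadjusted p under 0.05 there were 2, by DESeq2 0, and 5 were called without NCI-N87 control 1.

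Genes that work with the immunoproteasome were counted from lists of their own. Of the MHC class I presentation genes, 12 rose and 2 fell of 16 in SW48 with trametinib in set 2, 11 rose and 2 fell with palbociclib, and 3 rose and 5 fell with trametinib in set 1. Their median log2 fold changes were 0.68, 0.47 and 0.04, where the median of all genes was 0.01 in each. ERAP2, which trims peptides for MHC class I, rose by 2.22 with trametinib and 1.53 with palbociclib in set 2, TAP1 by 0.60 and 0.97, TAPBP by 1.22 and 1.03, and in set 1 CALR rose by 1.71. SW620 with palbociclib had 7 higher and 0 lower of 16 (B2M 0.66), and BT-474 with afatinib 3 higher and 3 lower of 15 (HLA-B -0.67). Of the interferon-stimulated genes, 14 of 18 rose with trametinib and 10 of 17 with palbociclib in set 2 SW48, GBP1 by 5.64 and 3.88, and 16 of 20 rose and 1 fell in set 1 (IFI44 3.80). Medians over that list were 1.19, 1.07 and 1.84. In SW620 with palbociclib 7 of 16 rose (ISG15 1.14) although PSMB8, PSMB9 and PSMB10 were not called. In BT-474 1 rose and 2 fell of 11 (median 0.36). Of 13 interferon signalling genes, 6 rose and 2 fell with trametinib and 6 rose and 1 fell with palbociclib in set 2 SW48, 4 rose and 4 fell in set 1, 2 rose in SW620 with palbociclib, and 4 rose and 1 fell in BT-474. STAT2, a transducer of interferon signals, rose in set 1 SW48 (0.80), in set 2 SW48 with trametinib (1.46) and palbociclib (1.54), in SW620 with palbociclib (0.94) and in BT-474 (1.14). Over all genes, 30.1% rose and 30.1% fell in set 2 SW48 with trametinib, 28.3% and 29.2% with palbociclib, 16% and 19.4% in set 1 SW48, 17.6% and 17.4% in SW620 with palbociclib, and 20.9% and 21.8% in BT-474. Each count of interferon signalling genes, and those of MHC class I genes in BT-474, lay within 3 genes of what these shares give for a list of that size.

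Genes on the constitutive side did not follow one direction. Of 18 proteasome partners with other names, such as shuttle factors and deubiquitinases, 1 rose and 13 fell with trametinib and 2 rose and 13 fell with palbociclib in set 2 SW48, 2 rose and 9 fell in set 1, 2 rose and 3 fell in SW620 with palbociclib, and 1 rose and 7 fell in BT-474. Medians over that list were -0.41, -0.35, -0.44, -0.14 and -0.13. ZFAND2A, a stress-induced proteasome partner, fell by 1.87 with trametinib and 0.85 with palbociclib in set 2 and 1.49 in set 1. POMP, the maturation factor of the core, rose in set 1 SW48 (0.45) and with palbociclib in SW48 (0.17) and fell in BT-474 (-0.44). Of 11 genes around NRF1, 2 rose and 5 fell with trametinib and 1 rose and 4 fell with palbociclib in SW48 of set 2. In set 1, 1 of 10 rose and 6 fell. SW620 with palbociclib had 2 of 11 that rose and 1 that fell. NFE2L1 itself fell in SW48 with trametinib (-0.74 in set 2, -1.48 in set 1) and palbociclib (-0.66) and in SW620 with palbociclib (-0.49), and VCP, which extracts NRF1 from the membrane, rose in SW48 (0.57, 0.57 and 0.61 in set 2 trametinib, set 1 trametinib and palbociclib) and fell in BT-474 (-0.27). In BT-474, 0 of 9 genes of that list rose and 3 fell, MAFF among them (-1.0). Of the genes of ubiquitin and its activating enzymes, 4 rose and 1 fell with trametinib and 5 rose and 1 fell with palbociclib of 7 in set 2 SW48, 3 rose and 3 fell in set 1, 3 rose and 1 fell of 6 in SW620 with palbociclib, and 2 fell of 6 in BT-474. Set against the shares of all genes given for the same comparisons, the counts around NRF1 and of ubiquitin genes lay within 3 genes of what those shares give, apart from the 6 that fell around NRF1 in set 1 and the 5 ubiquitin genes that rose with palbociclib in SW48. No list gene was called in SW620 with trametinib in either set, NCI-N87 or MKN-45, and 1 was in BT-20, PDIA3 (-0.46).

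Some member counts may include reads of neighbouring genes. By GENCODE v29, 17 members share exon bases with another gene, 8 of them within their last 500 exon bases, where 3′ tags fall. PSMC1 lies opposite NRDE2 and PSMD7 opposite an unnamed transcript over all 500. On the same strand as another gene, PSMA6 shares 481 of them, PSMD9 436 (with WDR66), PSMB10 374 and PSMA1 219. PSMB8 shares 134 exon bases with PSMB8-AS1 and PSMB9 139, none in the last 500. Whether counting used the strand is not given in the sources used here, which leaves counts of PSMC1 and PSMD7 uncertain, while same-strand overlaps leave those of PSMA6, PSMD9, PSMB10 and PSMA1 uncertain under either setting. The tables also hold 15 rows for alternative-haplotype copies of PSMB3, PSMB8 and PSMB9, all at 0 counts. How reads that fit both copies were assigned is not given in the sources used here, so levels of these 3 genes, which are compared between lines, carry that doubt.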

How the data were processed

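RNA of 54 libraries from 6 lines was read as 3′ tags with the Lexogen QuantSeq kit. Per the submitters' processing notes, reads were processed with Trimmomatic, STAR and featureCounts on hg38, with versions and strand setting not given in the sources used here. The deposited values are raw counts per gene, whole numbers for 33119 genes in each of 2 tables. The 5 lines of unassigned reads in the set 1 table were left out, and the second table repeats the 12 columns of set 1 with identical values.

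Counts were tested with edgeR 4.0.16 in R 4.3.3 (quasi-likelihood test, TMM scaling, filterByExpr at a count of 10 and a total of 15, Benjamini-Hochberg adjustment over all genes, threshold 0.05), each comparison on the libraries of its own groups. Fold changes are log2, drug minus control, and intervals are 2 SE either side. CPM use TMM factors over all libraries of a set. Log2 ratios add 0.5 to each count. Fits were tested on simulated counts. DESeq2 1.42.0 served as an alternative, beside other scaling, no filter, a fit over all groups of a set, a block for the replicate number, and each library left out. Library totals and a robust dispersion estimate were added after seeing the data. Tables and figures were made with Python 3.11.15, pandas 2.3.3 and matplotlib 3.10.9.

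Named are the catalytic genes in every comparison of a drug with its control and in every untreated line, and PSME1, PSME2, PSMF1 and POMP where called. Also named are the 4 highest and 4 lowest called members of each drug comparison (3 elsewhere) and up to 4 called genes of each other list. The text gives part of these. Named outside this rule, after their values were seen, are PSMD2 in set 1 SW48, PSMA5 with palbociclib, PSMG1 to PSMG3 where set beside PSMG2, and the genes in the checks of lines. So are catalytic genes in differences between lines or drugs, where they were not among the 3 highest or 3 lowest. The members and gene lists were chosen with earlier results of these data known. No 2 replicates agreed within sampling noise, with chi-square per gene of 2.84 to 156. Same-numbered replicates did not deviate together in any drug comparison (at least 1 of 3 correlations under 0.1). The counts limit precision, and intervals cover the spread between these libraries. 1 member is not reported here.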

Additional observations from a re-analysis of the deposited data

Results flagged for a closer look

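The fold changes of 2 lines under the same drug differed by edgeR's adjusted p under 0.05 for these named members, each as a log2 difference. For trametinib in set 1, SW620 minus SW48, PSMB4 differed by -0.965 and PSME2 by -1.586. For trametinib in set 2, SW620 minus SW48, PSMG3 differed by 0.657, PSMB9 by -0.885, PSMG2 by -1.556 and PSME2 by -1.599. For palbociclib, SW620 minus SW48, PSME3 differed by 0.516, PSMG3 by 0.504, PSMA7 by 0.357, PSMC5 by -0.736, PSME1 by -0.977 and PSME2 by -1.676. For afatinib, BT-474 minus BT-20, PSMB8 differed by 0.472, PSMB7 by -0.648, PSME2 by -0.762 and PSMC3 by -0.966. PSME2 is thus the 1 member in all 4 comparisons that named any, while the set 1 values rest on libraries that stood apart.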

How the results depend on the processing

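Over all alternatives no named fold change reversed its call. Of 131 called pairs of a named member and a comparison, 107 kept the call under every alternative and 24 lost it at least once, and of 51 uncalled pairs 9 gained it. With all groups of a set in 1 fit, members called were 5 in set 1 SW48 with trametinib, 2 in set 2 SW620 with trametinib, 1 in NCI-N87, 0 in BT-20, 7 for BT-474 minus BT-20, 2 for NCI-N87 minus MKN-45 and 13 for SW48 trametinib minus palbociclib. Without the filter they were 2 in BT-20 and 1 for set 1 SW620 minus SW48, and with DESeq2 2 and 7. Under library totals they were 7 for set 1 SW620 minus SW48, 18 for trametinib in set 2 and 9 for BT-474 minus BT-20. With the replicate block they were 0 in BT-20 and 0 for set 1 SW620 minus SW48, where the numbers do not pair the samples, and no other count moved by over 1.5 times.

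Leaving out each library in turn, the counts ran from 0 to 4 in set 2 SW620 with trametinib, 0 to 8 in NCI-N87, 0 to 1 in BT-20, 0 to 11 for trametinib SW620 minus SW48 in set 1 and 7 to 13 in set 2, 14 to 26 for BT-474 minus BT-20, 0 to 5 for NCI-N87 minus MKN-45 and 4 to 12 for SW620 trametinib minus palbociclib. Other counts stayed within 1.5 times. The causes were not tested. Depth limits PSMB9 and PSMB8 in BT-474 (15 to 57 counts) and PSMB9 in SW620 and MKN-45.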
